A study of Homo sapiens with 4 samples.

Results

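XBP1, CREBRF, ATF6, ERN1, CREB3, CREB3L2 and CREBZF are 7 genes of the unfolded protein response, the set of sensors and transcription factors that answers stress in the endoplasmic reticulum. The 7 were chosen by name, on log2 differences of XBP1 and CREBRF already seen on these arrays, so those differences are given as a description with no test. In the probe table used, 5 of the 7 have a probe, 7 probes in all, among 18665 genes with a probe, and 4 of them were detected on every array, as were 9001 genes. The expression of ERN1 and CREBZF was not analysed here, and only their promoter sequences were searched.

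The cells were CP70sps, spheres of the CP70 ovarian cancer line selected by exclusion of a Hoechst dye and described by the labels as ovarian tumour-initiating cells. All groups shared a culture on plates of low attachment, without serum, in medium supplemented with insulin, 0.4% albumin, EGF at 20 ng/ml and bFGF at 10 ng/ml. Niclosamide, an anthelmintic that uncouples mitochondrial respiration, was given at 3 µM for 0, 2, 4 or 6 h, and RNA of each time was read on 1 Illumina bead array. With 1 array per time there is no replicate check, no p-value and no spread between samples against which to set the order of neighbouring times. The 0 h array was the only unexposed sample used here, so exposure and time in culture cannot be told apart, nor can fewer cells of a type and less RNA per cell.

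The unfolded protein response has 3 sensors in the membrane of the endoplasmic reticulum. IRE1, the product of ERN1, is an endonuclease that cuts the XBP1 messenger so that it can be spliced into the form encoding the active transcription factor. ATF6 moves to the Golgi, where proteases free its transcription factor domain, which raises the XBP1 and chaperone genes through the ER stress response element. PERK, the product of EIF2AK3, slows translation and favours ATF4 and CHOP. CREB3 and CREB3L2 are membrane-bound transcription factors released by the same proteases, CREBRF binds CREB3 and promotes its loss, and CREBZF is a partner that represses CREB3.

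The promoter window of XBP1 is shown because it holds the element through which ATF6 is known to act. The RefSeq table, on GRCh38.p14, gives 300 bases for each start, from 250 before it to 50 after it, and all 7 genes matched, with 10 windows. The XBP1 window lies at chr22:28800520-28800819 on the minus strand and is written 5′ to 3′, with the fixed letters of the element in capitals.
XBP1: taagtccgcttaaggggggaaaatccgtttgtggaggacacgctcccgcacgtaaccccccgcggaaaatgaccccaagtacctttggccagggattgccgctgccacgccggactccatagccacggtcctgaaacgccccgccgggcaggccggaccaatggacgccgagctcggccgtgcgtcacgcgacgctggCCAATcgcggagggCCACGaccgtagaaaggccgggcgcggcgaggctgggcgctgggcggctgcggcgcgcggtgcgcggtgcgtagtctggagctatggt
The CREBRF window lies at chr5:173056102-173056401 on the plus strand, and its capitals mark E-boxes, the letters CACGTG.
CREBRF: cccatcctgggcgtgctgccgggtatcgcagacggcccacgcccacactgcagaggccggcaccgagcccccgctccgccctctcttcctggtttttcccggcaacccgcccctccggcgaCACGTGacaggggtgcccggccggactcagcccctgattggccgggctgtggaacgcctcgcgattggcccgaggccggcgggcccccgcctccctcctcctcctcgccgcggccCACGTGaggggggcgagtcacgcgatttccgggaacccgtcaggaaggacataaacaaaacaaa
The ER stress response element was searched on both strands as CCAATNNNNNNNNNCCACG. It begins 52 bases before the XBP1 start, at chr22:28800603-28800621, and was in 27 of 35116 windows, or 0.0769%. The CREBRF window holds 2 E-boxes, 129 and 14 bases before the start, a motif in 7.26% of all windows. The main CREB3L2 window holds a cyclic AMP response element, TGACGTCA, found in 1.85% of windows, and its second window holds an amino acid response element, TGATGNAA, found in 3.62%. None of these motifs, nor the second ER stress response element, ATTGG and CCACG with 1 base between them (0.0541% of windows), nor the UPR element, TGACGTGG (0.729%), was in the windows of ATF6, CREB3, CREBZF or ERN1 or in the second XBP1 window. TGACGTGG and CACGTG share the letters ACGTG, and TGACGTGG and TGACGTCA share TGACGT. A match is a description of the sequence, and a window without one says nothing of the factor.

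XBP1 was read by 2 probes, and both were brightest at 6 h. The brighter probe, ILMN_1809433, had intensities of 4133, 4121, 6669 and 9585 units at 0, 2, 4 and 6 h. Its 0 h and 2 h values lay together and the 4 h and 6 h values stood above them. On the normalized log2 scale it was 0.06 higher at 2 h, 0.71 at 4 h and 1.21 at 6 h than at 0 h, the last a 2.31-fold difference. The second probe, ILMN_2365465, had 3041, 4064, 5775 and 9035 units at 0, 2, 4 and 6 h, so each later array was brighter than the one before it. Its log2 differences from 0 h were 0.46, 0.92 and 1.57 at 2, 4 and 6 h, and the 6 h value was 2.97-fold that at 0 h. Among 9044 genes detected on both arrays, 73 had a larger 6 h minus 0 h difference than the brighter probe and 18 a larger one than the second. Between 6 h and 2 h the probes gave 1.15 and 1.11, and 5 and 6 of 9202 genes were further up. The table enters the probes against different RefSeq transcripts, one that encodes the unspliced protein and one that encodes the spliced protein. The bases that each probe reads are not given in the sources used here, and the retained stretch is short, so neither probe is taken as a measure of splicing.

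CREBRF was also read by 2 probes, and both were brighter at each later time. The brighter probe, ILMN_2195821, had 332.8, 369.6, 484.1 and 729.7 units at 0, 2, 4 and 6 h. Its log2 differences from 0 h were 0.12, 0.43 and 1.10 at 2, 4 and 6 h. The step between 6 h and 4 h, 0.67, was the largest of its 3 steps. The second probe, ILMN_1776788, had 237.9, 314.0, 422.9 and 630.6 units at 0, 2, 4 and 6 h and log2 differences from 0 h of 0.41, 0.78 and 1.45. Both were past 2-fold at 6 h, at 2.14-fold and 2.73-fold over 0 h, with 115 and 28 of 9044 genes further up. Between 6 h and 2 h they read 0.98 and 1.04, which places the brighter probe just under 2-fold and the second just over it, with 15 and 11 of 9202 genes further up.

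**Figure D1:**
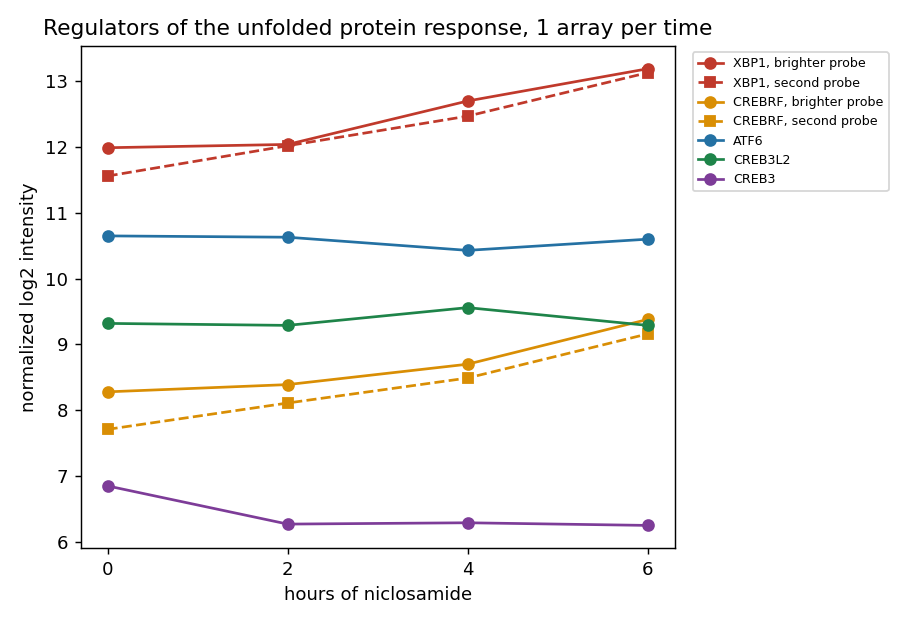
Normalized log2 intensity (vertical axis) of the 7 probes against hours of niclosamide (horizontal axis), 1 point per array. Both XBP1 and both CREBRF probes end highest at 6 h, ATF6 stays within 0.22 and CREB3L2 within 0.27, and CREB3 is highest at 0 h.

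ATF6, the sensor itself, gave 1593, 1577, 1507 and 1626 units at 0, 2, 4 and 6 h. Its log2 values spanned 0.22, lowest at 4 h, and its 6 h minus 0 h difference was -0.06. CREB3L2, known in mouse cartilage for raising transport genes, gave 644.6, 654.6, 834.7 and 688.2 units at 0, 2, 4 and 6 h. Its highest value was at 4 h, 0.23 above 0 h on the log2 scale, while 6 h and 0 h differed by -0.04. The sign of these small differences depended on the scaling: with each array set to 1 median, 6 h minus 0 h was 0.03 for ATF6 and 0.10 for CREB3L2. CREB3 was dim, with 150.5, 116.5, 121.6 and 121.1 units at 0, 2, 4 and 6 h. Its detection p-values, from the deposited files, were 0.00395, 0.00922, 0.00527 and 0.0105 at those times, so it was not well above background at 6 h and close to the limit of 0.01 on the other later arrays. It was 0.57 and 0.55 lower on the log2 scale at 2 h and 4 h than at 0 h. The 6 h difference from 0 h was -0.60, and it depended on the processing: it was -0.45 with median scaling, -0.44 with an offset of 50, -0.41 with the authors' values and -0.31 with no correction. No member other than XBP1 and CREBRF was past 2-fold at any time.

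Of the 5 measured regulators, 0 were at least 2-fold higher at 2 h than at 0 h and 0 were lower, where 1.35% and 1.29% of all genes passed. At 4 h the counts were again 0 and 0, against 0.217% and 0.423% of all genes. At 6 h, XBP1 and CREBRF were higher and none was lower among the 4 detected on both arrays, against 1.77% of 9044 genes higher and 1.95% lower. These differences chose the genes, so nothing is read from the counts. Against 2 h, the 6 h array had 1 of 4 regulators at least 2-fold higher, XBP1, and 0 lower, with all-gene shares of 0.152% and 0.141%. At 1.5-fold this became 2 of 4, where 1.53% of genes were higher and 1.34% lower. The mean of each gene's probes, and scaling to 1 median, each also gave 2 at 2-fold, the second being CREBRF. With the authors' values or an offset of 50 the count stayed at 1. The brighter and second CREBRF probes were then both under 2-fold, at 0.90 and 0.94 with the authors' values and 0.92 and 0.96 with that offset. Scaling to 1 median in place of quantile normalization moved the split of all genes to 189 higher and 83 lower at 2 h (123 and 118 as reported), 66 and 14 at 4 h (20 and 39), 273 and 106 at 6 h (160 and 176), and 17 and 10 for 6 h against 2 h (14 and 13). At 4 h it also moved the median of all genes to 0.15, against 0.01 as reported. The 4 h difference of CREB3L2 was then 0.41 and that of ATF6 was -0.07.

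The array at 0 h stood further from the others than they did from each other. The robust spread of log2 differences over genes was 0.386, 0.331 and 0.421 for 2, 4 and 6 h against 0 h, and 0.273, 0.216 and 0.235 for 4 h against 2 h, 6 h against 2 h and 6 h against 4 h. Its part in the regulators' values was not tested. Probes of 1 gene share the RNA and the array and are not replicates, but they show how far readings of a transcript parted. Over the 1710 genes for which precisely 2 probes were detected on every array, the median gap in 6 h minus 0 h was 0.283, and it was 0.124 in 6 h minus 2 h. The XBP1 probes parted by 0.36 and 0.04, and the CREBRF probes by 0.35 and 0.06, in the same order. In 59.2% of the 1710 genes the 6 h minus 0 h gap was smaller than that of XBP1, and in 57.7% smaller than that of CREBRF. Both probes were at least 2-fold higher at 6 h than at 0 h in 8 of these genes, which include XBP1 and CREBRF, and at 6 h than at 2 h in 2, which include XBP1.

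**Figure D2:**
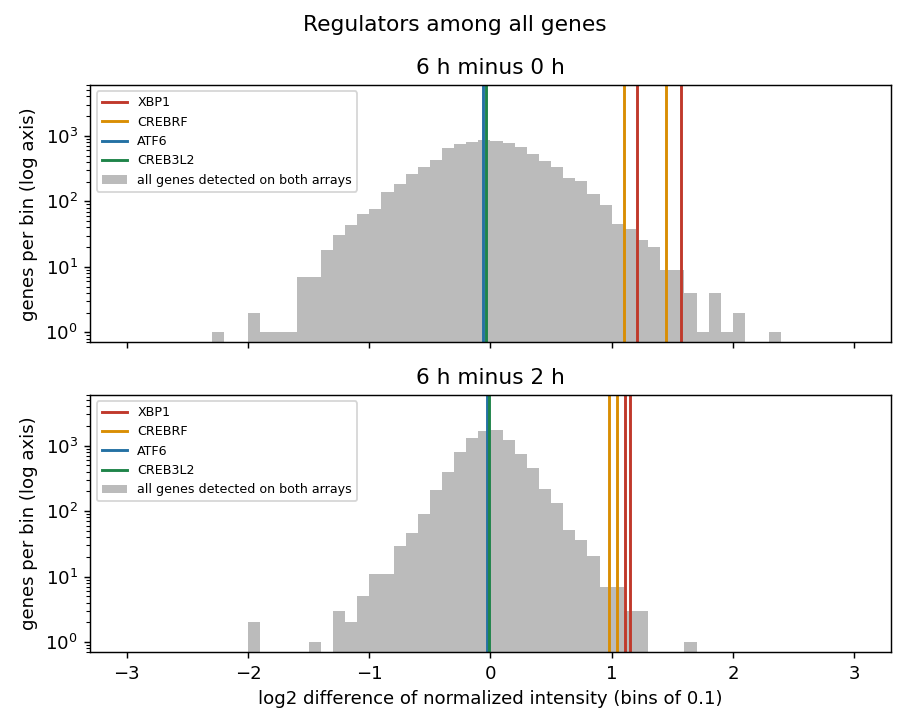
Number of genes per bin of 0.1 (vertical log axis) by log2 difference (horizontal axis), for 6 h minus 0 h above and 6 h minus 2 h below, with a line for each detected probe of the regulators. XBP1 and CREBRF lie in the right tail of both, at 1.10 to 1.57 and at 0.98 to 1.15, and ATF6 and CREB3L2 lie near 0.

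The genes with the most similar course were taken by the root mean square distance of the 3 differences from 0 h, over 9001 genes and 4 arrays. Nearest to the brighter XBP1 probe was YPEL2, a yippee family gene, at a distance of 0.0579, with differences of 0.13, 0.78 and 1.22 at 2, 4 and 6 h. ZNF165, a zinc finger gene, followed at 0.12, then HAPLN3, a hyaluronan link protein gene, at 0.149, TBC1D22B at 0.165 and CTSK, which encodes cathepsin K, at 0.179. CREBRF lay at 0.18, with 6 genes nearer, while the median over all genes was 0.826. Both genes were chosen on these same differences, so nothing is read from their closeness. The second XBP1 probe lay at 0.335, further than 86 genes, so the order reflects 1 probe and not the transcript. Nearest to the brighter CREBRF probe were GEM, a small GTP-binding protein gene, at 0.0978, the repressor gene BCL6 at 0.102, HAPLN3 and CTSK at 0.137 each, and PSPH, of serine synthesis, at 0.139. Its own second probe lay at 0.334, with 260 genes nearer. All of these distances share the 0 h array.

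Around the regulators, 21 other sensors, proteases and adaptors were listed, of which 13 were detected on both arrays. At 6 h against 0 h, 0 were at least 2-fold higher or lower, where 1.77% and 1.95% of all genes passed. At 1.5-fold, 2 were higher and 0 lower, against 9.46% and 9.79% of all genes, and the median was 0.11 beside -0.02 over all genes. Against 2 h the median was 0.06, beside 0.00 over all genes. In that comparison 0 were at least 1.5-fold higher and 1 lower, where 1.53% and 1.34% of all genes passed. The 1 lower was the cell death effector gene BAX at -0.66, named after its value was seen. Against 0 h that BAX probe read -0.00 and a second one 0.75. EIF2AK3, the gene of PERK, had 175.6, 191.5, 232.8 and 270.2 units at 0, 2, 4 and 6 h. It was 0.62 higher at 6 h than at 0 h on the log2 scale and 0.51 higher than at 2 h. TMBIM6, an inhibitor of cell death at the endoplasmic reticulum, was 0.65 higher at 6 h than at 0 h but 0.06 higher than at 2 h. RTCB, the ligase that joins the cut XBP1 messenger, differed by -0.38 and DDRGK1, which stabilises IRE1, by -0.37. MBTPS1 and MBTPS2, the proteases that free ATF6, were not among the largest and were added after their values were seen: they read 0.11 and 0.21 at 6 h against 0 h, and a second MBTPS2 probe read -0.04.

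XBP1 and ATF6 are known to raise genes of folding, translocation and degradation, of which 41 were listed and 34 detected on both arrays. Their median difference at 6 h was -0.03 against 0 h and -0.01 against 2 h, beside -0.02 and 0.00 over all genes. By the brightest probe, none was past 2-fold in either direction. The shares of all genes higher and lower were 1.77% and 1.95% against 0 h and 0.152% and 0.141% against 2 h. With median scaling 1 was at least 2-fold higher against 0 h, as were 273 of 9044 genes. With a detection limit of 0.05, 1 of 36 was at least 2-fold lower against 0 h, as were 209 of 10881 genes. At 1.5-fold, 6 of 34 were higher and 3 lower against 0 h, where 9.46% and 9.79% of all genes passed. Against 2 h, 1 was higher and 0 lower, where 1.53% and 1.34% of all genes passed. The 4 with the largest differences against 0 h were the lectin chaperone gene CALR at 0.96, FKBP14 of collagen folding at 0.78, SRP19 of the signal recognition particle at 0.77 and the chaperone gene HYOU1 at 0.76. Against 2 h these read -0.00, 0.16, 0.31 and 0.14. The second FKBP14 probe went the other way, at -0.15, and the second HYOU1 probe read 0.88. Probes of SYVN1, a ubiquitin ligase gene of degradation named after its values were seen, disagreed at 6 h against 0 h, at -0.24 on the brightest and 1.25 on the second. The 1 gene past 1.5-fold against 2 h was DNAJB9, a co-chaperone of HSPA5, named after its value was seen. It had 733.0, 719.7, 987.4 and 1168 units at 0, 2, 4 and 6 h and was 1.57-fold higher at 6 h than at 2 h.

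**Figure D3:**
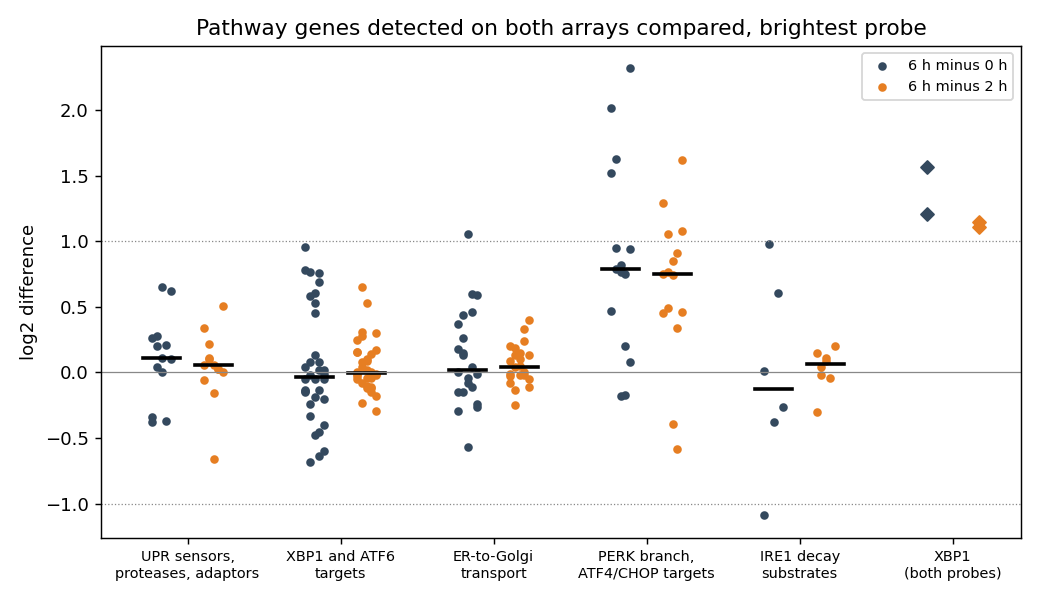
Log2 difference (vertical axis) of each listed gene detected on both arrays, by list (horizontal axis), at 6 h minus 0 h (dark) and 6 h minus 2 h (orange), with black bars at the list medians and dotted lines at 2-fold. The medians of the XBP1 and ATF6 targets lie at -0.03 and -0.01. Those of the ATF4 and CHOP targets listed for the PERK branch lie at 0.79 and 0.75, while both XBP1 probes lie above 1 in both comparisons.

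Of the ATF4 and CHOP target genes listed for the PERK branch, 15 of 16 were detected on both arrays. Their median difference from 0 h was 0.08, 0.25 and 0.79 at 2, 4 and 6 h, and the 6 h minus 2 h median was 0.75. At 6 h, 4 were at least 2-fold higher than at 0 h and 0 lower, and 10 were at least 1.5-fold higher and 0 lower. The shares of all genes higher were 1.77% at 2-fold and 9.46% at 1.5-fold, and the shares lower were 1.95% and 9.79%. Against 2 h, 4 were past 2-fold and 9 past 1.5-fold upward, beside 0.152% and 1.53% of all genes. None was past 2-fold downward, where 0.141% of all genes were. CHAC1, a glutathione-degrading enzyme gene, had 172.3, 262.3, 385.1 and 758.8 units at 0, 2, 4 and 6 h. It was 2.32 higher at 6 h than at 0 h on the log2 scale and 1.62 higher than at 2 h. DDIT3, the gene of CHOP, was 2.02 and 1.29 higher at 6 h than at 0 h and 2 h, ATF3 1.63 and 1.06, and the stress-induced SESN2 1.52 and 0.75. The genes of this list were among the earlier results of these data, so their direction is no independent evidence. Whether PERK itself had a part in their values was not tested.

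Genes of transport from the endoplasmic reticulum to the Golgi, which include targets of CREB3 and CREB3L2, had 22 of 27 detected on both arrays. Their median was 0.02 at 6 h against 0 h and 0.04 against 2 h, beside -0.02 and 0.00 over all genes. GBF1, an exchange factor for Arf proteins, was the 1 gene past 2-fold, at 1.06 against 0 h. In that comparison 1.77% of all genes were at least 2-fold higher and 1.95% lower. Against 2 h, GBF1 read 0.15. With the authors' processed values, or an offset of 50, the count at 2-fold was 0. SEC24D and SEC16A, of the COPII coat and its exit sites, read 0.60 and 0.59 and the COPII GTPase gene SAR1A -0.57 against 0 h. At 1.5-fold, 3 of 22 were higher and 0 lower against 0 h, beside 9.46% and 9.79% of all genes, so the count higher was not far from that share. None passed 1.5-fold in either direction against 2 h, beside 1.53% and 1.34% of all genes.

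Transcripts that IRE1 is known to cut gave 6 of 12 detected on both arrays at 6 h and 0 h, with a median of -0.13, and 8 at 6 h and 2 h, with a median of 0.07. TGOLN2, a trans-Golgi protein gene, was the 1 of 6 past 2-fold, where 1.95% of all genes were lower, at -1.09 against 0 h, with 10.83, 9.63, 10.12 and 9.74 on the log2 scale at 0, 2, 4 and 6 h. Its low values were at all 3 later times, lowest at 2 h. With median scaling, 1 gene of this list was also at least 2-fold higher against 0 h, as were 273 of 9044 genes. The collagen gene COL6A1 read 0.98, ERGIC3 0.61 and DR1 -0.38 against 0 h, but a second ERGIC3 probe read 0.11. Against 2 h they read 0.04, -0.04 and 0.09, and TGOLN2 0.11. Expression of the endonuclease gene, ERN1, was not analysed here.

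Of the XBP1 and ATF6 targets with a RefSeq window, 36 in all, 7 hold the ER stress response element of the XBP1 promoter, or 19.4%. Over all genes with a window, 25 of 27305 hold it, or 0.0916%. The list was made of known targets of these factors, so nothing is read from the share. Their elements are shown beside that of XBP1, with the spacer in lower case. Each is written from CCAAT to CCACG, whichever strand holds it. Those of CALR, CRELD2 and SERP1, and the second of HSP90B1, lie on the strand opposite to the gene.
XBP1: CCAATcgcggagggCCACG
HSPA5: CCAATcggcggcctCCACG
CALR: CCAATgatggtcgaCCACG
PDIA6: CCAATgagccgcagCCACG
CANX: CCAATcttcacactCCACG
CRELD2: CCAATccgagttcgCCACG
SERP1: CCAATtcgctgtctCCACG
HSP90B1, first: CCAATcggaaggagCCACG
HSP90B1, second: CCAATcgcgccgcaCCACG
A further 3 hold the second element, HYOU1, SDF2L1 and HERPUD1, the last without values here. That element is in 0.0696% of all genes with a window. Genes with either element were grouped by sequence and not by their values. HSPA5, the gene of the chaperone BiP, had 491.5, 539.2, 557.8 and 796.5 units at 0, 2, 4 and 6 h, so only the 6 h array stood apart. It was 0.61 higher at 6 h than at 0 h and 0.53 higher than at 2 h on the log2 scale. CALR was instead high at both 2 h and 6 h, at 743.0, 1437, 881.8 and 1529 units at 0, 2, 4 and 6 h. HSP90B1, the gene of the chaperone GRP94, was lower at every later time, by -0.72, -0.40 and -0.68 on the log2 scale at 2, 4 and 6 h. SDF2L1 read -0.60 and CRELD2, a folding factor gene, -0.48 at 6 h against 0 h, while CANX, PDIA6 and SERP1 read 0.08, 0.08 and 0.13. A second CANX probe read -0.33. Of the 9 with values, 3 were at least 1.5-fold higher than at 0 h and 2 lower, beside 9.46% and 9.79% of all genes. None was past 1.5-fold against 2 h, beside 1.53% and 1.34% of all genes, and the median there was 0.04. XBP1, which holds the first element, was 1.15 higher on its brighter probe in that comparison. It was chosen on its differences, so nothing is read from the contrast with these genes.

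**Figure D4:**
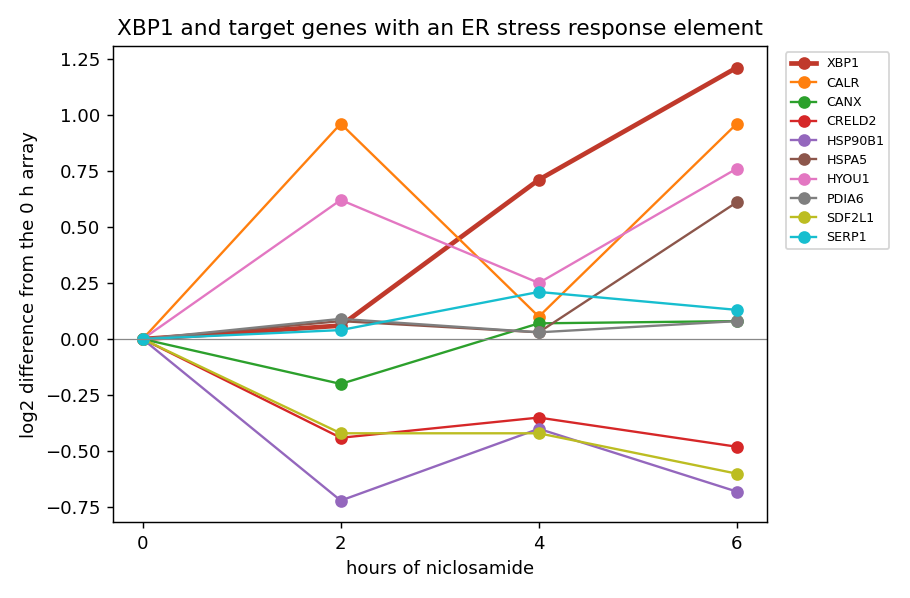
Log2 difference from the 0 h array (vertical axis) against hours of niclosamide (horizontal axis) for XBP1, by its brighter probe, and the 9 measured target genes whose promoter window holds either ER stress response element. XBP1 is highest at 6 h, at 1.21, CALR and HYOU1 are high at 2 h and 6 h, HSPA5 at 6 h, and HSP90B1, SDF2L1 and CRELD2 lie below 0 at every later time.

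The arrays were alike in depth, with 28.3% to 29.6% of 48803 probes detected. Of 12 epithelial markers, 4 were detected on at least 1 array, EPCAM, KRT8, KRT18 and KRT19, and PAX8, WT1, MUC16 and CDH1 were not. Of the tumour-initiating markers ABCG2, CD44, KIT, PROM1 and ALDH1A1, only ALDH1A1 was detected, 1 of 5. The name tumour-initiating comes from the sample labels and not from these markers. Of 7 fibroblast markers, 5 were detected, COL1A2, COL3A1, DCN, LUM and THY1, of 7 leukocyte markers 1, CD68, and of 6 endothelial markers 0. Intensity before normalization was also summed over all probes of each list, detected or not. The sum for the fibroblast list was 12480, 13060, 12560 and 10560 units at 0, 2, 4 and 6 h, lowest at 6 h. By the brightest probe, however, its 5 detected genes had a median 6 h minus 0 h difference of -0.02, ranging from -0.28 to 0.09. The median over all genes was also -0.02. Second probes of COL1A2 and DCN read -0.92 and -0.44, against -0.02 and -0.28 on the brightest. The sum for the epithelial list ranged between 6455 and 7550 and that for the leukocyte list between 3205 and 3582. For the tumour-initiating list it ranged between 14900 and 18050, and for the endothelial list between 425.4 and 480.7. Whether these levels have a part in the XBP1 and CREBRF values was not tested.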

How the data were processed

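Total RNA of CP70sps cells was hybridized to 4 Illumina bead arrays, 1 at each of 0, 2, 4 and 6 h. The deposited intensity values are non-normalized, and the submitters' processing notes name BeadStudio. Each probe has a detection p-value, per the file headers, and the authors' processed intensity values were used as an alternative. The neqc method of limma 3.58.1 (R 4.3.3) was applied: normexp background estimated through detection p-values, offset 16, quantile normalization and log2. A probe was detected at p under 0.01, and a gene was read by its brightest probe detected on at least 1 array. Of the probes, 27578 carry 1 symbol, 13 several and 21212 none in the table used. The normalization steps were also run on simulated arrays with known changes, and nothing about the real arrays is read from that run. No test between times was possible. Genes were counted at 2-fold and 1.5-fold. Named genes were the 7 regulators, up to 4 genes of each pathway list with the largest 6 h minus 0 h difference, and the 5 genes nearest to XBP1 and to CREBRF. Members and lists were chosen with earlier results of these data known. Alternatives were median scaling, the authors' values, an offset of 50, the mean of probes, other detection limits and no background correction.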

Additional observations from a re-analysis of the deposited data

How the results depend on the processing

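Over 168 differences of the regulators' probes under the alternatives, 13 changed sign, each of a value near 0, and none of a value past 2-fold. The count of regulators at least 2-fold higher at 6 h than at 2 h, 1 as reported, was 2 with median scaling, 2 with the mean of probes and 2 at 1.5-fold, where CREBRF joined XBP1. It stayed at 1 with the authors' values and with an offset of 50, where both CREBRF probes were under 2-fold. CREB3 at 4 h and at 6 h against 0 h moved to -0.31 each with no background correction or normalization. The 6 h minus 0 h difference was 1.20 to 1.22 and 1.55 to 1.58 for the XBP1 probes with median scaling and the authors' values, and 1.01 to 1.25 and 1.29 to 1.59 for CREBRF. Over all genes, 160 higher and 176 lower at 6 h against 0 h became 273 and 106 with median scaling and 115 and 106 with the authors' values, and 14 and 13 at 6 h against 2 h became 9 and 10 with the authors' values. No paired analysis was possible because each time has 1 array. Signal near background limits CREB3, and 1 array per time limits every value.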
